A study of Mus musculus with 2 samples.

Results

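The loci of 3 genes that mark the epicardium, Wt1, Tcf21 and Aldh1a2, held no listed p300 peak in embryonic mouse heart and none in midbrain. The loci were taken as fixed windows on the mouse build mm9: chr2:104800001-105150000 for Wt1 (350 kb), chr10:22350001-22750000 for Tcf21 (400 kb) and chr9:70950001-71300000 for Aldh1a2 (350 kb). A peak belonged to a locus when its midpoint lay in the window, and this held for 0 of the 3597 peaks of the heart list and 0 of the 2786 peaks of the midbrain list. What remains to describe is the aligned reads and the coverage of both libraries across the windows.

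The epicardium is the outer cell layer of the heart. It forms from the proepicardium, spreads over the myocardium during midgestation, and gives rise to fibroblasts of the heart and to mural cells of the coronary vessels. Wt1 encodes a zinc finger transcription factor that is a standard epicardial marker. Tcf21 encodes a basic helix-loop-helix transcription factor of epicardial cells and of the fibroblasts that come from them, and Aldh1a2 encodes the retinaldehyde dehydrogenase that makes retinoic acid. p300, the protein immunoprecipitated here, is a histone acetyltransferase and coactivator found at many active enhancers.

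Both groups were CD-1 embryos at embryonic day 11.5 of mixed sex, with no genetic change or treatment named, and each tissue was 1 library pooled from about 150 embryos. There were 1303861 aligned reads from heart and 5869671 from midbrain, so on the depth-scaled unit rpm (aligned reads of a library scaled to a common total, as usual for sequencing) a heart read was worth 0.767 rpm and a midbrain read 0.170 rpm. The heart tissue held myocardium and other cells beside the epicardium, and fewer cells with p300 at a site cannot be told apart from less p300 per cell. No RNA was measured, so the tissues could not be checked against marker expression, and a read count near a gene is no measure of its expression. With no replicate, each difference below carries only an exact 95% interval for counting error, and no p-value was computed.

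Windows without peaks were common. To set a background, chromosomes 1 to 19 and X were tiled into bins of the windows' own lengths. Of 7335 bins of 350 kb, 27.7% held at least 1 heart peak and 22.7% at least 1 midbrain peak, and 59.4% held no peak of either list. Of 6418 bins of 400 kb, 30.4% held a heart peak, 25.2% a midbrain peak, and 55.7% neither. The absence of peaks at each locus was thus shared with more than 1 in 2 bins of its size.

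The nearest peaks lay 40.8 kb or more outside the windows. For Wt1 the closest heart peaks lay 466 kb below and 503 kb above the window edges, and the closest midbrain peaks 144 kb below and 206 kb above. For Tcf21 the closest heart peaks lay 638 kb below and 1416 kb above, and the closest midbrain peaks 4255 kb below and 2541 kb above. Measured from the middle of the Tcf21 window, the nearest midbrain peak was 2741 kb away, and 7.59% of the 400 kb bins lay as far from one. The other distances from a window's middle, 216 to 839 kb, were matched or exceeded by 35.9% to 73.5% of bins. For Aldh1a2 the closest heart peaks lay 261 kb below and 154 kb above. The closest of all was a midbrain peak 40.8 kb above the Aldh1a2 window, at chr9:71340803-71341348, of rank 2266 in its list. It held 12 midbrain reads and 1 heart read, so its library-scaled heart reads were 0.375 times its midbrain reads (interval 0.00878 to 2.54). Such an interval lay below 1 at 21.5% of all listed midbrain peaks, and it did not at this one. Whether any of these peaks acts on a gene of a window cannot be read from positions alone.

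Scaled to all aligned reads, only the Wt1 window of the 3 loci had more heart than midbrain reads beyond counting error. It held 274 heart reads, or 210 rpm (interval 186 to 237), against 855 midbrain reads, or 146 rpm (interval 136 to 156). The heart over midbrain ratio was 1.44 (interval 1.25 to 1.65). The heart library was therefore denser here while the midbrain library was close to the median of all 350 kb bins, which was 139 rpm for midbrain reads and 131 rpm for heart reads. As many heart reads as at Wt1 were found in 10.7% of the bins, and as many midbrain reads in 39.3%.

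The Tcf21 window held 231 heart reads, or 177 rpm (interval 155 to 202), and 943 midbrain reads, or 161 rpm (interval 151 to 171). Its ratio was 1.10 (interval 0.951 to 1.27), so the intervals of the libraries overlapped. The Aldh1a2 window held 188 heart reads, or 144 rpm (interval 124 to 166), and 779 midbrain reads, or 133 rpm (interval 124 to 142), with a ratio of 1.09 (interval 0.921 to 1.28). At Tcf21 and Aldh1a2 the interval of the ratio thus included 1. Summed over all 3 windows the ratio was 1.21 (interval 1.11 to 1.32), and without Wt1 it was 1.10 (interval 0.982 to 1.22).

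Regional ratios away from 1 were found across the genome. Intervals above 1 were less frequent in bins that, like these windows, held no peak. The interval lay wholly above 1 in 26% of the 350 kb bins and in 27.1% of the 400 kb bins, and wholly below 1 in 38.2% and 39%. Among bins with no peak of either list it lay above 1 in 12.9% of those of 350 kb and 12.6% of those of 400 kb. The median bin ratio was 0.921 at 350 kb (quartiles 0.727 and 1.18) and 0.929 at 400 kb. Counting intervals are thus much narrower than the spread between regions of these libraries. A ratio at least as high as that of Wt1 occurred in 9.97% of the 350 kb bins, and in 3.77% of the 4354 bins that held no peak of either list. For Aldh1a2 the corresponding share of all 350 kb bins was 33.1%, and for Tcf21 32.3% of the 400 kb bins. Among bins without a peak these shares were 19.4% for Aldh1a2 and 17.0% for Tcf21. Scaled so that the median bin ratio is 1, a choice made after seeing the data, the ratio was 1.57 at Wt1 (interval 1.36 to 1.80), 1.19 at Tcf21 (interval 1.02 to 1.37) and 1.18 at Aldh1a2 (interval 1.0003 to 1.38), so that under this scaling all 3 intervals lay above 1. In the plot of bin ratios, Wt1 lies on the right shoulder of the distribution, and Tcf21 and Aldh1a2 lie nearer to its middle.

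**Figure D1:**
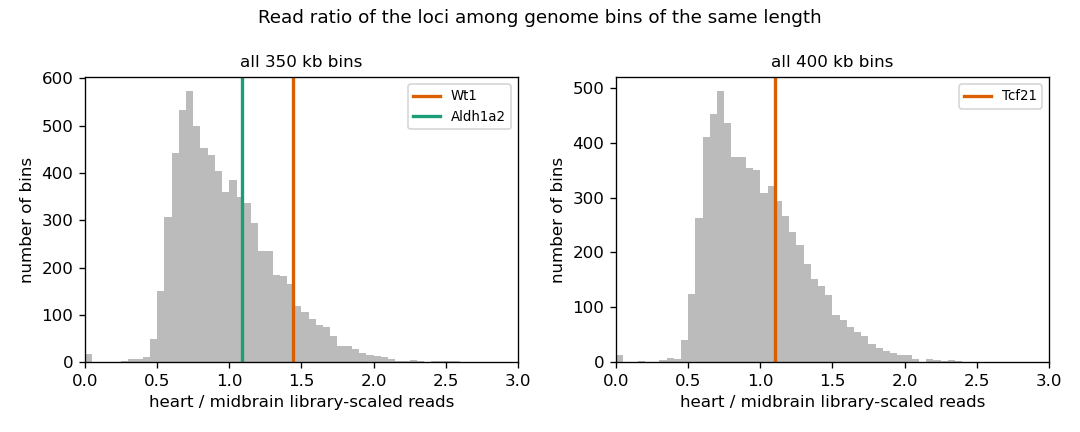
Heart over midbrain ratio of library-scaled reads (x axis) against the number of genome bins (y axis), for 350 kb bins (left) and 400 kb bins (right). Vertical lines mark the loci: 1.44 for Wt1, 1.09 for Aldh1a2 and 1.10 for Tcf21, beside median bin ratios of 0.921 and 0.929.

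The order of the loci was the same for heart reads per kb and for the ratio, with Wt1 first. Per kb, heart reads were 1.36 times as dense at Wt1 as at Tcf21 (interval 1.13 to 1.62) and 1.46 times as dense as at Aldh1a2 (interval 1.21 to 1.76). Tcf21 and Aldh1a2 did not differ beyond counting error in the heart library, with a density ratio of 1.08 (interval 0.883 to 1.31). In the midbrain library all 3 pairs had intervals that included 1, with density ratios of 1.04 for Wt1 over Tcf21, 1.10 for Wt1 over Aldh1a2 and 1.06 for Tcf21 over Aldh1a2. The difference between loci was also computed on the heart over midbrain ratio itself. That of Wt1 was 1.31 times that of Tcf21 (interval 1.07 to 1.60) and 1.33 times that of Aldh1a2 (interval 1.07 to 1.65). These are counting intervals as well, and base composition or mappability of the windows was not tested.

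Within the Wt1 window the excess of heart reads was uneven, and largest in 3 adjoining segments. In consecutive segments of 50 kb from the window's start, the heart reads numbered 31, 41, 49, 56, 34, 32 and 31. The midbrain reads of the same segments numbered 130, 120, 110, 128, 113, 136 and 118. The heart reads were highest in segment 4, while the midbrain reads stayed within 110 to 136. All 7 segments had a ratio above 1, from 1.06 to 2.01. The interval lay above 1 in segments 2, 3 and 4, which together span chr2:104850001-105000000, and below 1 in none. Across all 50 kb segments of the genome it lay above 1 in 12.1% and below 1 in 12.7%.

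At Tcf21 the 8 segments held 38, 32, 24, 34, 35, 26, 15 and 27 heart reads. The midbrain reads were 143, 132, 81, 116, 125, 130, 84 and 132. Heart and midbrain reads were both low in segment 7, and the ratios ran from 0.804 to 1.33 with every interval including 1. At Aldh1a2 the 7 segments held 30, 17, 41, 25, 22, 38 and 15 heart reads and 108, 103, 151, 107, 99, 128 and 83 midbrain reads. Segment 3 was the highest and segment 7 the lowest in both libraries. Ratios there ran from 0.743 to 1.34, again with every interval including 1.

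**Figure D2:**
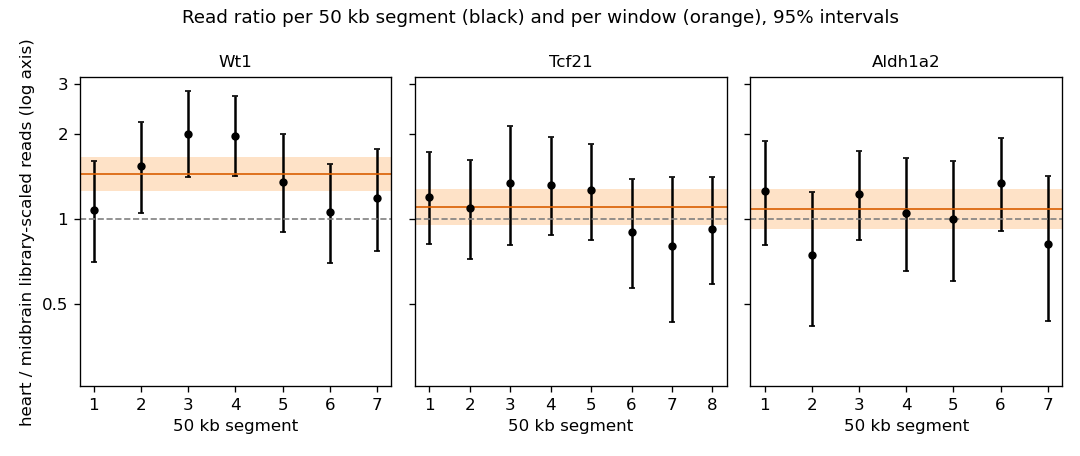
Heart over midbrain ratio of library-scaled reads (log axis) in each 50 kb segment of the 3 windows (black points, bars are exact 95% counting intervals), with the ratio of the whole window and its interval as an orange line and band. The bars of segments 2, 3 and 4 at Wt1 lie above the dashed line at 1, and every bar at Tcf21 and Aldh1a2 crosses it.

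The same reads were also counted in a finer tiling. Of the 35 tiles of 10 kb at Wt1, 6 had an interval above 1, as did 3 of 40 at Tcf21 and 0 of 35 at Aldh1a2, against 4.73% of the 253007 such tiles genome-wide. No tile of the windows had an interval below 1, which 2.6% of all tiles had. With tiles starting 5 kb later the counts were 4 of 34, 1 of 39 and 0 of 34, so the calls at single tiles hang on where the tiles begin. The Wt1 share was 17.1% and then 11.8%, above the genome-wide 4.73% and 4.72%. The Tcf21 share was 7.5% and then 2.56%, on either side of them. With 3 and then 1 such tiles at Tcf21 and 0 at Aldh1a2 both times, the counts are too small to rank Tcf21 against Aldh1a2. The tile richest in heart reads at Wt1 was chr2:104860001-104870000, with 18 heart and 26 midbrain reads and a ratio of 3.12 (interval 1.61 to 5.91). At Tcf21 it was chr10:22530001-22540000, with 18 heart and 37 midbrain reads and a ratio of 2.19 (interval 1.17 to 3.95). At Aldh1a2 it was chr9:71060001-71070000, with 15 heart reads. That tile also held the most midbrain reads of its window, 44, and its ratio of 1.53 had an interval including 1 (0.793 to 2.81). These tiles were picked for their heart reads, so their ratios describe them and support nothing further.

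**Figure D3:**
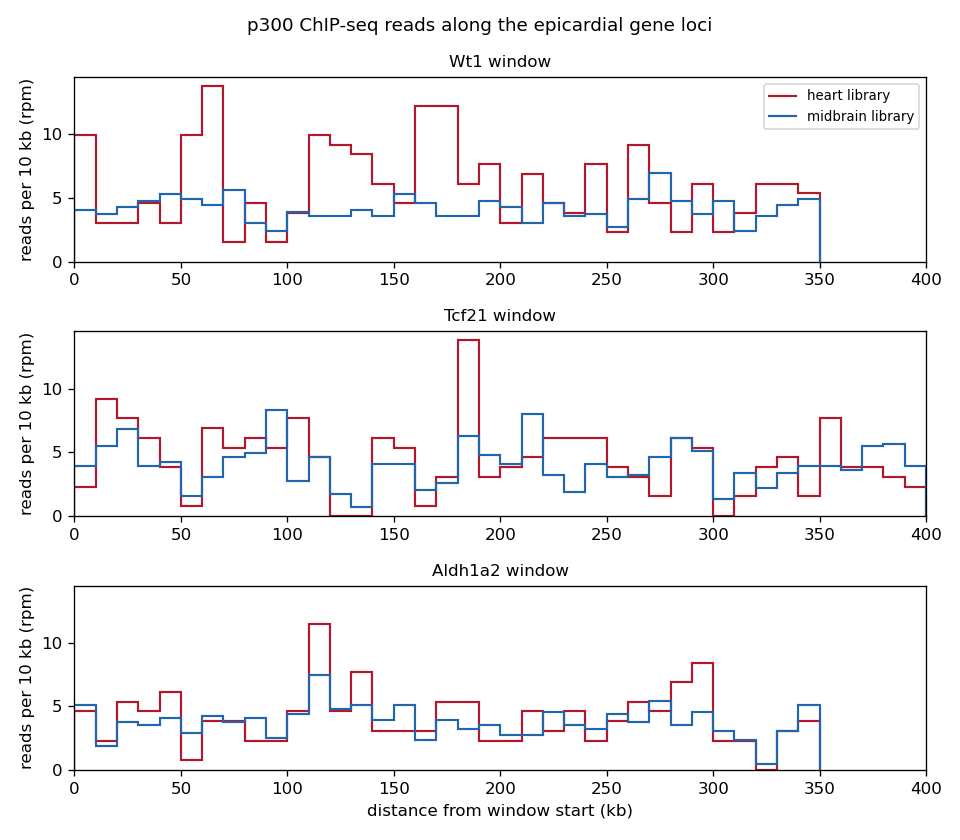
Library-scaled reads per 10 kb tile in rpm (y axis) against the distance from the window start in kb (x axis), for the heart library (red) and the midbrain library (blue) at the Wt1, Tcf21 and Aldh1a2 windows. The highest heart values are 13.8 rpm at Wt1 and at Tcf21 and 11.5 rpm at Aldh1a2, where the highest midbrain value of the window, 7.50 rpm, falls in the same tile.

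The windows were then searched for the sharpest local pile of reads, since a listed peak is a narrow feature. A stretch as wide as the median listed peak was used, 662 bp for heart reads and 743 bp for midbrain reads. The densest heart stretch at Wt1 held 5 heart reads and 2 midbrain reads, at chr2:104979017-104979678. At Tcf21 it held 6 heart reads and 0 midbrain reads, at chr10:22450819-22451480. At Aldh1a2 it held 6 heart reads and 1 midbrain read, at chr9:71235413-71236074. These numbers reach those of listed heart peaks, which held a median of 6 of the deposited heart reads (range 1 to 33). As few as 1 deposited read was found in 20 listed heart peaks and at most 3 in 92 of the 3597, so whether the heart list was made from these reads alone cannot be told, and the read numbers and heights of listed heart peaks hold for the deposited reads only. No more than 5 heart reads were found in 48.8% of the listed heart peaks, and no more than 6 in 68.9%. Stretches this dense also occurred outside listed peaks: 40.2% of the 350 kb bins had one of at least 5 heart reads and 22.2% one of at least 6, and 24.8% of the 400 kb bins had one of at least 6. In bins without a peak the shares were 26.5%, 13.6% and 15.04%. With heart reads moved by 24 bp, the windows' densest stretches thus overlapped with listed peaks in the number of deposited heart reads. At shifts of 100 and 150 bp the densest heart stretch at Wt1 held 4 reads in place of 5. At Tcf21 it held 6 and 7, and at Aldh1a2 6 at both shifts. At the shift of 24 bp, only 5.95% of the listed heart peaks held no more than 4 heart reads. The shares of listed peaks at the other shifts are not given here. Why the windows' densest stretches were not listed cannot be read from the deposited lists.

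The midbrain library gave a clearer gap. The windows held no listed midbrain peak, so a gap below listed peaks was partly set by the listing and is only a description. Its densest stretches held 9 midbrain reads at Wt1 (chr2:105028575-105029317), 10 at Tcf21 (chr10:22536293-22537035) and 9 at Aldh1a2 (chr9:71065171-71065913), with 1, 0 and 3 heart reads. Listed midbrain peaks held a median of 17 midbrain reads. Only 1.36% of them held no more than 9, and 4.16% no more than 10. Stretches as dense were present outside peaks in 75.2% of the 350 kb bins and 61.8% of the 400 kb bins.

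The deposited coverage track showed the same pattern, being made from the same reads lengthened to 300 bp. The highest heart coverage was 4 reads at Wt1, 5 at Tcf21 and 4 at Aldh1a2, where the listed heart peaks had a median height of 4 (quartiles 3 and 5, range 1 to 14). The Tcf21 maximum, from position 22451013 of chromosome 10, exceeded the height of 2393 of the 3597 listed heart peaks and lay within the densest heart stretch of that window. As high a value occurred in 23.3% of the 400 kb bins, listed peaks included. Heart coverage of at least 4, the maximum at Wt1 and Aldh1a2, occurred in 43.4% of the 350 kb bins. In the midbrain library the maxima were 6, 7 and 6 reads, and the listed midbrain peaks had a median height of 10 (quartiles 8 and 12). Only 82 of the 2786 listed midbrain peaks were no higher than 6 reads, and 364 were no higher than 7. Midbrain coverage of at least 6 occurred in 77.8% of the 350 kb bins, and of at least 7 in 56.1% of the 400 kb bins. Mean heart coverage was 0.236 reads at Wt1, 0.174 at Tcf21 and 0.162 at Aldh1a2, and mean midbrain coverage was 0.736, 0.709 and 0.670. Heart reads covered 19.7%, 14.8% and 13.7% of the windows, and midbrain reads 50.2%, 47.7% and 47.3%. These coverage values are not scaled to library size, so they compare loci within a library and not the libraries with each other.

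**Figure D4:**
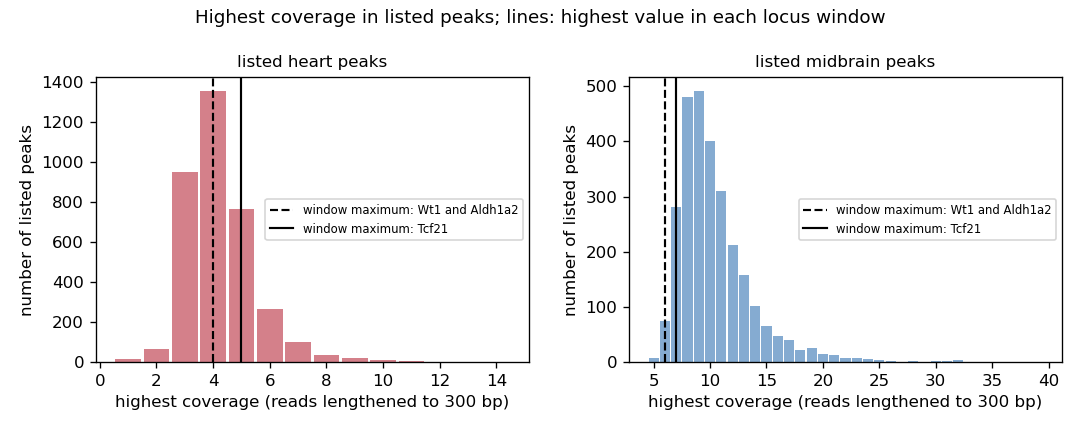
Number of listed peaks (y axis) by the highest coverage inside the peak in reads lengthened to 300 bp (x axis), for the heart list (left) and the midbrain list (right). Lines mark the highest coverage found anywhere in each window, 4 at Wt1 and Aldh1a2 and 5 at Tcf21 in the heart, within the bulk of listed peaks, and 6 and 7 in the midbrain, at the low end.

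Tiles of 500 bp give the named sites of each window. Most tiles held no heart read: 493 of 700 at Wt1, 620 of 800 at Tcf21 and 551 of 700 at Aldh1a2. No tile held more than 4 heart reads, and 2 tiles in each window held 4. At Wt1 these were chr2:104861001-104861500 and chr2:104979001-104979500, each with 2 midbrain reads. The second of them overlaps the densest heart stretch of that window, and the first in its richest 10 kb tile. At Tcf21 they were chr10:22364501-22365000, with 3 midbrain reads, and chr10:22450501-22451000, with 1. At Aldh1a2 they were chr9:70996501-70997000, with 1 midbrain read, and chr9:71088001-71088500, with 0. In each of the 6 tiles the heart reads came from both strands.

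The tiles richest in midbrain reads were named in the same way. At Wt1 they were chr2:105028501-105029000 and chr2:105070501-105071000, with 7 midbrain reads each and 1 and 0 heart reads. At Tcf21 they were chr10:22536501-22537000, with 9 midbrain reads and 0 heart reads, and chr10:22562001-22562500, with 7 and 2. At Aldh1a2 they were chr9:70999001-70999500, with 6 midbrain reads and 0 heart reads, and chr9:71065501-71066000, with 6 and 3. None of these 6 tiles was among the 6 chosen for heart reads. With so few tiles picked among 700 or 800 in a window, that lack of overlap carries no information. The interval of the ratio included 1 at each of the 6 tiles chosen for midbrain reads. At a one-sided 95% limit, a count of 0 heart reads allows up to 3 reads, or 2.30 rpm. That is more than the highest midbrain value of 1.53 rpm, so a lack of heart reads at these tiles was not detectable at this depth.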

How the data were processed

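The build is mm9 per the submitters' processing notes. Per the file headers and the values, the authors deposited 1 line per read (a count of 1 each, lengthened to 300 bp), coverage signal in 25 bp steps (not scaled to depth) and a ranked peak list per tissue. The word blat stands in the heart track names. The midbrain aligner, the tool and thresholds behind the peaks and any control library are not given in the sources used here. No read repeated a position and strand.

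From these files, reads were placed by moving the 5 prime end by 24 bp (heart) or 46 bp (midbrain), from strand offsets of 48 and 92 bp within peaks, searched from 46 to 500 bp. The heart offset lies next to the lower limit of that search, so these values serve as shifts and not as fragment lengths. Reads were scaled to all aligned reads as rpm. Ratios carry exact conditional binomial intervals and read numbers exact Poisson intervals. The ratio intervals were tested on simulated Poisson counts with the same fold in every bin. That test does not cover the spread between regions of the real libraries. Reads were amplified and carry no molecular identifiers. All intervals, and the one-sided limit of 3 reads that a count of 0 allows, thus cover counting error only. Background bins are all complete bins with reads on chromosomes 1 to 19 and X.

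By rule, each window's 2 tiles of 500 bp with the most heart reads and the 2 with the most midbrain reads are named (ties: the leftmost), and the peaks nearest outside each window. Densest stretches, richest 10 kb tiles and the comparison of coverage maxima with listed peaks were added after the values had been seen. Highest and mean coverage per window were planned both raw and scaled, and only the raw values are given. The windows and rules were chosen with earlier results of these data known. An mm9 genome and annotation were not used here, so genes were not placed within windows, no sequence is printed, and the planned motif search and peak counts at other epicardial genes were not run. In the gene order of RefSeq (GRCm38.p6, names only), the protein-coding neighbours are Eif3m and Them7 for Wt1, Tbpl1 and Eya4 for Tcf21, and Aqp9 and Polr2m for Aldh1a2. The tools were scipy 1.17.1, numpy 2.4.6, pandas 2.3.3 and matplotlib 3.10.9 under Python 3.11.15.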

Additional observations from a re-analysis of the deposited data

How the results depend on the processing

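The counts of 0 peaks per window stayed at 0 in each list under any overlap of 1 bp, in the better-ranked part of the list and with peaks less than 1 kb apart joined. None of these settings could add a peak. The better-ranked part is a subset, and the nearest peak lay 40.8 kb outside a window. Scaling to the median bin ratio, chosen after seeing the data, moved the interval above 1 at Tcf21 (ratio 1.19, interval 1.02 to 1.37) and at Aldh1a2 (ratio 1.18, interval 1.0003 to 1.38). This follows from the median bin ratio lying below 1. The Wt1 ratio was 1.44 to 1.69 under its 9 alternatives, with the interval above 1 in each. Removing listed peaks could not move a window's value, since none lay there. Starting the 10 kb tiles 5 kb later, also chosen afterwards, gave 5 tiles on the heart side in place of 9, and with no shift there were 11. The other alternatives kept their side or count, or stayed within the counting interval. The planned ratios per member peak, ratios pooled over member peaks, flank densities and shared peaks gave no value without member peaks. No paired analysis was possible because each tissue has 1 library. In the heart library a stretch of 3 reads equals 2.30 rpm, which limits what can be resolved at single sites.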
